A study of Drosophila melanogaster with 2 samples.

Results

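Insulator and architectural proteins divide fly chromosomes into domains, and the 10 genes described here encode the best known of them: Chro, Cp190, Dref, Trl, BEAF-32, CTCF, su(Hw), mod(mdg4), Ibf1 and dwg. They were chosen by name, all 10 were found in the annotation, and all are among the 13945 protein-coding genes on the 6 chromosome arms (18164 genes of every kind). The data are peaks of chromatin immunoprecipitation followed by sequencing (ChIP-seq) with an anti-GFP antibody on whole Drosophila melanogaster embryos, male and female pooled, collected at 0 to 16 h. The transgenic line stably expressed Mes4 with GFP at its C terminus; which promoter drove it is not stated in the labels. Mes4 is a different protein from the histone methyltransferase Mes-4. Both samples, biological replicates 3 and 4, belong to 1 group, so there was no contrast between conditions. No untagged line was analysed here, and both replicates were compared by the authors with the same control.

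Most insulator proteins recognise DNA through zinc fingers or other sequence-specific domains and then recruit common partners. Cp190 and Mod(mdg4) are such partners, and BEAF-32, CTCF, Su(Hw), Ibf1 and Zw5 (the product of dwg) are DNA binders, several of which work with one or both. Chro, Dref and GAGA factor (the product of Trl) sit mainly at active gene starts and in open chromatin, where domain borders often fall. In these data the genes themselves are the targets: the question was whether a Mes4-GFP peak lay at the start of each, how strong it was, and which neighbouring gene shared it.

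Peaks are ranked here by the signal value that the authors' peak caller gave them, which serves only to order peaks within 1 list. Each replicate has a relaxed list of 30000 peaks, as does the pool of both, and 3207 peaks form the optimal list of the irreproducible discovery rate (IDR) procedure. Those 3207 are exactly the strongest 3207 of the pooled list, down to a signal of 85.5. A gene is called bound if any of its annotated transcription start sites (TSSs) had an optimal summit no more than 500 bp away. Sequencing depth is unknown from these files, so a gene without an optimal peak was below the list's limit and is not shown to lack binding.

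Of the 10 genes, 7 were bound: Chro, Dref, Cp190, Trl, CTCF, mod(mdg4) and BEAF-32. Among all protein-coding genes 2101, or 15.1%, were bound. The genes su(Hw), Ibf1 and dwg were not. Of the 9 genes with at least a pooled relaxed summit at a TSS, the same 7 were bound, against 27.6% of the 7608 protein-coding genes with such a summit. Widening the distance to 2 kb added no gene to the 7, while the share of all protein-coding genes was then 21.5%. The strongest start peak of the 7 bound genes had a median rank of 533, and that of the 2101 bound protein-coding genes one of 1514. These are descriptions of a list whose members were picked with earlier results known, and no test was made of them.

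**Figure D1:**
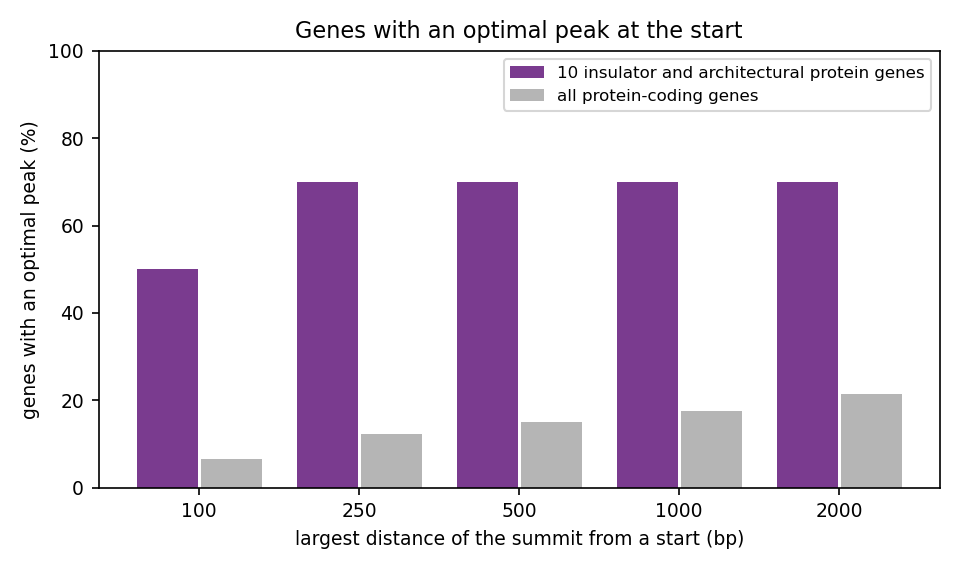
Percentage of genes (vertical axis) with an optimal peak whose summit lay within a given distance of a start (horizontal axis, bp), for the 10 insulator and architectural protein genes (purple) and all 13945 protein-coding genes (grey). The purple bars stand at 50% for 100 bp and at 70% from 250 bp on, and the grey bars at 6.62% for 100 bp and 21.5% for 2000 bp.

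**Figure D2:**
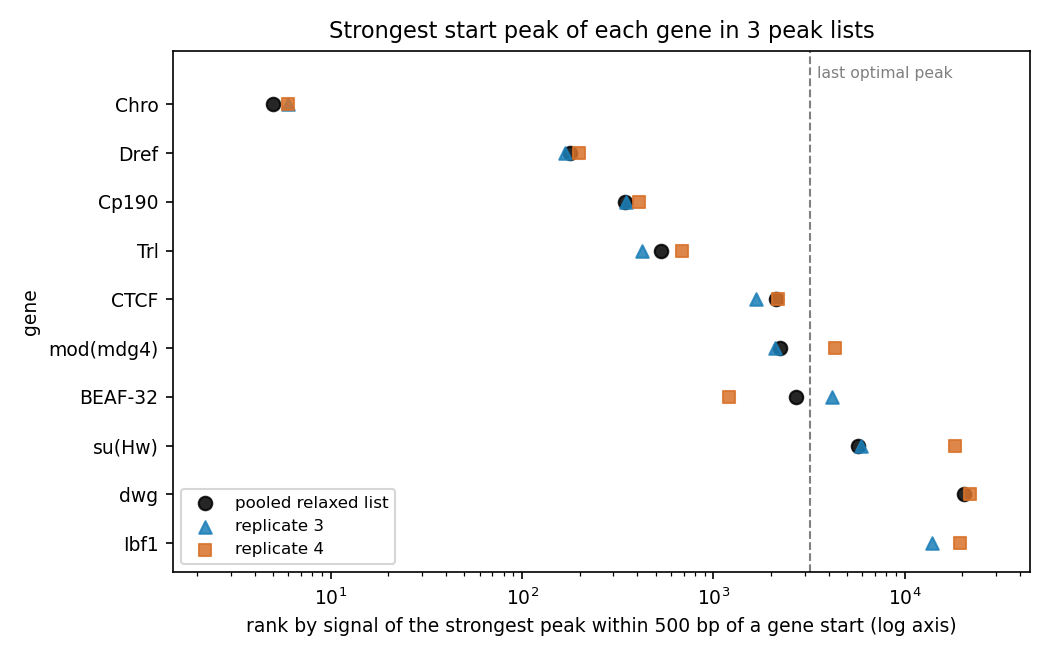
Rank by signal (horizontal log axis, 1 is the strongest) of the strongest peak within 500 bp of a start of each gene, in the pooled relaxed list (circles), replicate 3 (triangles) and replicate 4 (squares); a missing symbol means no peak there, and the dashed line marks rank 3207, the last optimal peak. Chro stands at ranks 5 and 6, and mod(mdg4) and BEAF-32 have 1 replicate on each side of the line.

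Chro, which encodes a chromodomain protein of the interbands of polytene chromosomes, had the strongest start peak of the 10 genes, and only 3 other protein-coding genes had a stronger one. Its peak (3L, 22878708 to 22879101, dm6) ranked 5 in the optimal list with a signal of 1233. In replicate 3 it ranked 6 with a signal of 746, and in replicate 4 also 6 with a signal of 493. The summit lay in the 5' UTR, 96 bp downstream of the most upstream Chro TSS. Ssl1, which encodes a subunit of the general transcription factor TFIIH, starts 105 bp away on the opposite strand, and its TSS was 201 bp from the summit. A peak at this divergent pair cannot be assigned to either gene. Ranked directly above it among peaks at gene starts was that of Ugalt, at rank 4, and directly below that of CG1888, at rank 7.

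The sequence between the starts of Chro and Ssl1, and a site of 30 bases in the Chro 5' UTR that holds the CGATA nearest to the summit, are shown because this is the strongest peak of the group. Here and below sequences are the plus strand of the Release 6 (dm6) RefSeq genome, and capitals mark matches to 6 motifs searched on both strands within 100 bp of summits. These were the DNA replication-related element (DRE) TATCGATA, CGATA (the BEAF-32 core, which every DRE also contains), GAGAG (GAGA factor), GGTCACAC (Motif 1 core), TGCATA (Su(Hw) core) and AGNNGGCGC (CTCF core).
Chro and Ssl1, chr3L:22878985-22879088: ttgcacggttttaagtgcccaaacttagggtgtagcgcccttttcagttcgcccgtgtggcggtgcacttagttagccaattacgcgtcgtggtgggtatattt
Chro 5' UTR site, chr3L:22878880-22878909: tgtattgcctgtCGATAgctttaaactaac
The centre of that CGATA lay 6 bp from the summit, and the 104 bp between the starts held no match to any of the 6 motifs.

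Dref encodes the factor that binds the DRE at the promoters of replication and other housekeeping genes. Its peak (2L, 9967194 to 9967411) ranked 177 in the optimal list with a signal of 382. Replicate 3 gave rank 168 with a signal of 235, and replicate 4 rank 199 with a signal of 149. The summit lay 96 bp upstream of the single Dref TSS and 5 bp from a TSS of RpL13, a cytoplasmic ribosomal protein gene on the opposite strand whose outermost TSS is 84 bp from that of Dref. When each peak was counted only for the gene with the nearest TSS, Dref was the member of the 7 that was lost. No relaxed pooled peak lay elsewhere in the gene or within 2 kb of its start.

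Cp190 encodes a BTB zinc-finger protein that joins the complexes of several insulator DNA binders. Its start carried a pair of overlapping optimal peaks, both with their summits in the gap of 281 bp that separates it from CG4338 on the opposite strand. The stronger peak (3R, 15275251 to 15275360) ranked 343 with a signal of 288, and its summit was 49 bp upstream of the Cp190 TSS and 232 bp from that of CG4338. In replicate 3 it ranked 348 with a signal of 171, and in replicate 4 it ranked 409 with a signal of 109. The weaker peak (3R, 15275284 to 15275699) ranked 1470 with a signal of 135, and its summit was 251 bp from the Cp190 TSS and 30 bp from that of CG4338. It ranked 1644 in replicate 3 and 1573 in replicate 4. Each summit thus lay nearest to the start of a different gene of the pair.

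The gap at Dref and part of that at Cp190 are shown because both lie between divergent starts that had an optimal peak, and both hold the CGATA core. The Dref summit lay just past the printed gap, on the RpL13 side. The Cp190 stretch runs from its DRE, of which 4 bases belong to the annotated Cp190 5' UTR, to 100 bp past the summit of the rank 343 peak.
Dref and RpL13, chr2L:9967230-9967312: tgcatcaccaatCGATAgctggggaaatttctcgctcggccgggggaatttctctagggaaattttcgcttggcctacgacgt
Cp190, chr3R:15275238-15275390: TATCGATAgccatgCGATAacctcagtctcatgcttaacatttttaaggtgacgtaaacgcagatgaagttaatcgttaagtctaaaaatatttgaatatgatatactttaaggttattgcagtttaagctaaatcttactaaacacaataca
The centre of the Cp190 DRE lay 48.5 bp from the summit of the rank 343 peak. It was the only DRE within 100 bp of any of the 14 optimal summits in or near the 10 genes, against 4.55% of all 3207 optimal summits. Within 200 bp there were 2 more, 138.5 bp from the summit at the mod(mdg4) start and 170.5 bp from that at BEAF-32, and 7.2% of all optimal summits had a DRE at that distance. Such a match describes the letters in the window and does not show a bound factor. The Dref stretch held a CGATA, centred 81 bp from the summit, but no DRE.

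Trl encodes GAGA factor, which binds GA-rich sequence and keeps promoter chromatin open. It carried more optimal peaks than any other of the 10 genes: 6 of the 14 had their summits inside this gene of 13121 bp with 4 annotated TSSs. Of all protein-coding genes, with a median length of 2166 bp, 19, or 0.136%, had 6 or more optimal summits in the gene. Trl held 0.457 optimal summits per kb, against 0.024 per kb over the whole 6 arms, intergenic sequence included. The part played by gene length and number of TSSs was not tested. Peaks 1440 and 2194 of the list overlap, so the 6 peaks are not all separate regions.

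The strongest Trl peak (3L, 14759333 to 14759700) was not at a start. It ranked 96 with a signal of 501, and its summit lay in an intron, 1554 bp downstream of the outermost TSS and 1533 bp upstream of the next one. It ranked 68 in replicate 3 with a signal of 334 and 147 in replicate 4 with a signal of 168. The strongest start peak (3L, 14756978 to 14757393) ranked 533 with a signal of 237, and its summit lay in the 5' UTR, 150 bp downstream of the innermost TSS. It ranked 423 in replicate 3 with a signal of 156, and 681 in replicate 4 with a signal of 85.1. The outermost TSS itself had no optimal summit within 500 bp: the nearest, at rank 1889, was 629 bp downstream. One more pooled peak in an intron, at rank 3785 with a signal of 77.5, fell just outside the optimal list. A further optimal peak at rank 1743 lay 259 bp upstream of a TSS that the annotation gives to both Trl and CG42507. All 6 optimal peaks were among the 3207 strongest of each replicate, the lowest of them at ranks 2268 and 2360. The strongest optimal peak lay over 500 bp from the gene's own TSSs in 2 of the 7 bound genes here, Trl and mod(mdg4). Across protein-coding genes with an optimal peak at a TSS or in the gene, this held for 25.8% of 2627. Those 2627 include genes with optimal peaks only inside the gene, all of which count towards the 25.8%, so the sets are unlike. The share among the 2101 genes bound at a start was not worked out.

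The Trl intron summit is shown as the strongest site of the gene, and the rank 1743 summit because it was the only one of the 14 with a GAGAG, the core that GAGA factor itself recognises.
Trl intron, rank 96, chr3L:14759395-14759595: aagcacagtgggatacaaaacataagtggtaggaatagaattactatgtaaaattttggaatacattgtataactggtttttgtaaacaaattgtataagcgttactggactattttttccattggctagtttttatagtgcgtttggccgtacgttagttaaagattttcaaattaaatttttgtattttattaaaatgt
Trl, rank 1743, chr3L:14758121-14758321: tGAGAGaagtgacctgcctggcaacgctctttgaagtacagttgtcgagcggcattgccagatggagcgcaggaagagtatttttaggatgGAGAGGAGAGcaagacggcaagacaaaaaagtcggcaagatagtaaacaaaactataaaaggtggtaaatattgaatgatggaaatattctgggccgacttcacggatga
The intron window had a GC content of 27.9%, against a median of 37.3% for the same window at all optimal summits, and held none of the 6 motifs. The rank 1743 window held 3 GAGAG matches, the nearest centred 2 bp from the summit. GAGAG was found at 26% of all optimal summits.

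CTCF encodes the zinc-finger insulator protein shared with vertebrates. Its optimal peak (3L, 7356286 to 7356701) ranked 2133 with a signal of 109, and the summit lay in an intron, 219 bp downstream of the single TSS. It was matched in replicate 3 by a peak at rank 1679 with a signal of 75.6 and in replicate 4 by one at rank 2188 with a signal of 45. Replicate 3 had only this 1 summit in the gene. The summit of replicate 3 was 129 bp from the pooled one and that of replicate 4 was 18 bp from it. A second pooled peak, outside the optimal list at rank 4166, had its summit 9 bp from the TSS. The replicate 3 summit, 90 bp downstream of the TSS, lay nearer to the summit of this second peak than to the optimal one. No other protein-coding start lay within 500 bp, but that of the antisense RNA CR45822 was 493 bp from the summit.

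The part of the CTCF summit window outside annotated UTRs is shown because it was the only one of the 14 windows to hold the CTCF core.
CTCF, chr3L:7356460-7356580: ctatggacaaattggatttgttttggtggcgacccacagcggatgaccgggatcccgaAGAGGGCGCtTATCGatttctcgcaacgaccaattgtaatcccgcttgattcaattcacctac
The core was centred 28 bp from the summit and a CGATA, read on the minus strand, 36 bp from it. The CTCF core was found at 4.15% of all optimal summits.

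The gene mod(mdg4) encodes a BTB partner of Su(Hw) in the gypsy insulator and makes many isoforms by trans-splicing to separately transcribed 3' exons. Its strongest optimal peak (3R, 21365303 to 21365718) lay 11890 bp downstream of its TSS. It ranked 807 with a signal of 191, and the replicates gave rank 997 with a signal of 101 (replicate 3) and rank 582 with a signal of 92.4 (replicate 4). The starts of 10 of the annotated precursor genes for these 3' exons lay within 500 bp of that summit, pre-mod(mdg4)-E nearest at 23 bp. The peak at the mod(mdg4) start (3R, 21377105 to 21377520) was weaker, at rank 2223 with a signal of 106, its summit 88 bp downstream of the TSS. It ranked 2097 in replicate 3 with a signal of 67.3 and 4327 in replicate 4 with a signal of 31.1, so the gene was not bound by the 3207 strongest peaks of replicate 4 alone. The internal peak was among the 3207 strongest in both.

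The internal mod(mdg4) peak is shown because its summit window was the only one of the 14 with the Su(Hw) core, here as the palindrome TATGCATA in a UTR of a precursor gene.
Summit window outside UTRs, chr3R:21365489-21365608: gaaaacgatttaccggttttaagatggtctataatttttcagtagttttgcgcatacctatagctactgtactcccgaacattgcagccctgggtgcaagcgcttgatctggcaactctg
Su(Hw) core site, chr3R:21365420-21365449: ttatagcaaaaTATGCATAttggtattggt
The palindrome counts as 2 overlapping matches, 1 on each strand, the nearer centred 75.5 bp from the summit. The Su(Hw) core was found at 15.1% of all optimal summits. The commonest motif, CGATA, was found at 5 of the 14 summits, in 5 genes, and at 31% of all optimal summits. The Motif 1 core was found at none of the 14 and at 3.02% of all.

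**Figure D3:**
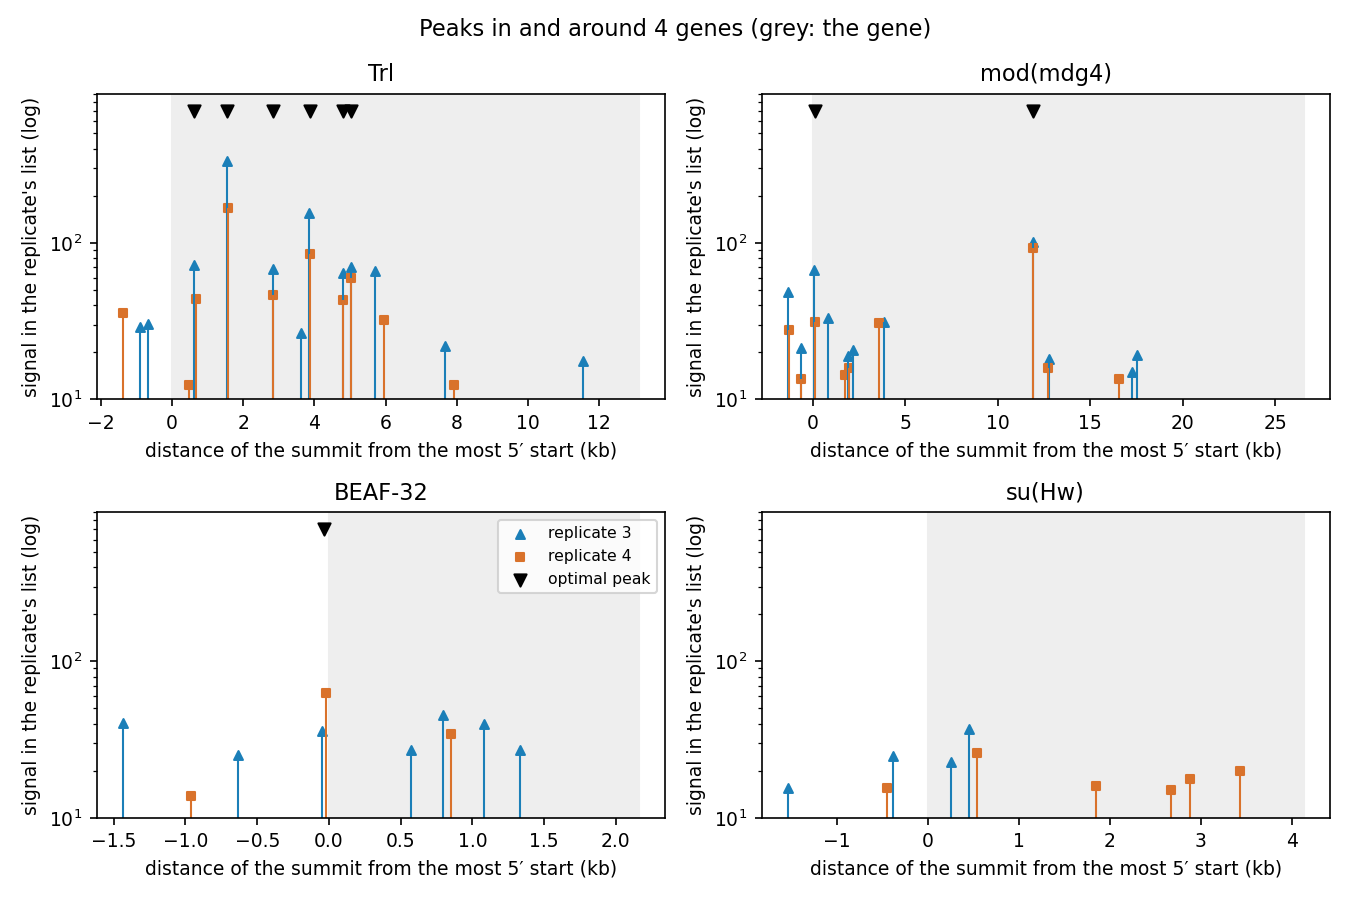
Peaks of replicate 3 (triangles) and replicate 4 (squares) in and around 4 genes, by distance of the summit from the gene's most 5' start (horizontal axis, kb, in the direction of transcription) and signal in that replicate's own list (vertical log axis); the grey area is the gene and the black marks are the optimal peaks. Trl has 6 optimal peaks, mod(mdg4) has 2, BEAF-32 has 1, and su(Hw) has none.

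BEAF-32, whose product binds CGATA clusters at housekeeping gene starts, had the weakest start peak of the 7 and the least alike ranks in the replicates. Its optimal peak (2R, 14770225 to 14770640) ranked 2692 with a signal of 95.4, 36 bp upstream of the outermost TSS. The same site ranked 6109 in replicate 3 with a signal of 36, and 1213 in replicate 4 with a signal of 62.5. The ranks differed 5.04-fold, against a median of 1.42-fold over 3202 optimal peaks matched in both replicates, of which 75 (2.34%) differed by 5 times or more. In replicate 3 the strongest start peak was another one, at rank 4157 near the innermost TSS, so BEAF-32 was not bound by the 3207 strongest peaks of replicate 3 alone. The pooled counterpart of that peak ranked 4163, outside the optimal list. A TSS of the antisense RNA CR42254 was 163 bp from the summit, and the start of Spred, the nearest protein-coding neighbour, was 1046 bp from that of BEAF-32.

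The 3 genes without an optimal peak differed in how far they fell below the limit. The best pooled start peak of su(Hw), which encodes the zinc-finger protein of the gypsy insulator, ranked 5679 with a signal of 60.3, and its summit was 450 bp downstream of the TSS. Replicate 3 had it at rank 5915. The replicate 4 peak nearest to that pooled summit, at rank 6097, was 536 bp from the TSS. The strongest within 500 bp in replicate 4 was therefore another, at rank 18412 beside Polr2I. For dwg, which encodes the scs insulator protein Zw5, the best pooled start peak ranked 20366. It had a signal of 29.1 and a −log10 q-value of 0.27. Replicate 3 had no peak within 500 bp of that start, and replicate 4 had one at rank 21938.

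Ibf1, whose product recruits Cp190, was the 1 gene of the 10 with no pooled relaxed summit within 500 bp of its TSS, where 54.6% of protein-coding genes had one. The nearest was 525 bp upstream, at rank 28166, beside Ibf2, its divergent neighbour 463 bp away. Each replicate alone had a start peak, at rank 13872 in replicate 3 and 19511 in replicate 4, on opposite sides of the TSS. In the coding exon of Ibf1 a pooled peak ranked 6037 with a signal of 58.1. That peak was found at rank 5766 in replicate 3 and at rank 9475 in replicate 4.

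Of the 10 genes, 5 (Chro, Cp190, Dref, Trl and CTCF) had an optimal start peak matched among the 3207 strongest peaks of both replicates, counting summits within 200 bp, against 11.3% of all protein-coding genes. Optimal summits inside the gene itself were found in 4 of the 10 (Chro, Trl, CTCF and mod(mdg4)) and in 9.63% of all protein-coding genes. The strongest start peaks of 3 of the 7 bound genes (Chro, Cp190 and Dref) were shared with another protein-coding gene, against 1193 of all 2101 bound protein-coding genes (56.8%). Trl shared a weaker start peak, that at rank 1743, with CG42507. At their strongest start peak, the replicate ranks of Chro, Dref, Cp190 and Trl, the 4 ranked highest in the optimal list, were 1 to 1.61-fold apart. This was not particular to them. The ranks of CTCF, lower in the list, were 1.3-fold apart, and the median over all 3202 matched optimal peaks was 1.42-fold.

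**Figure D4:**
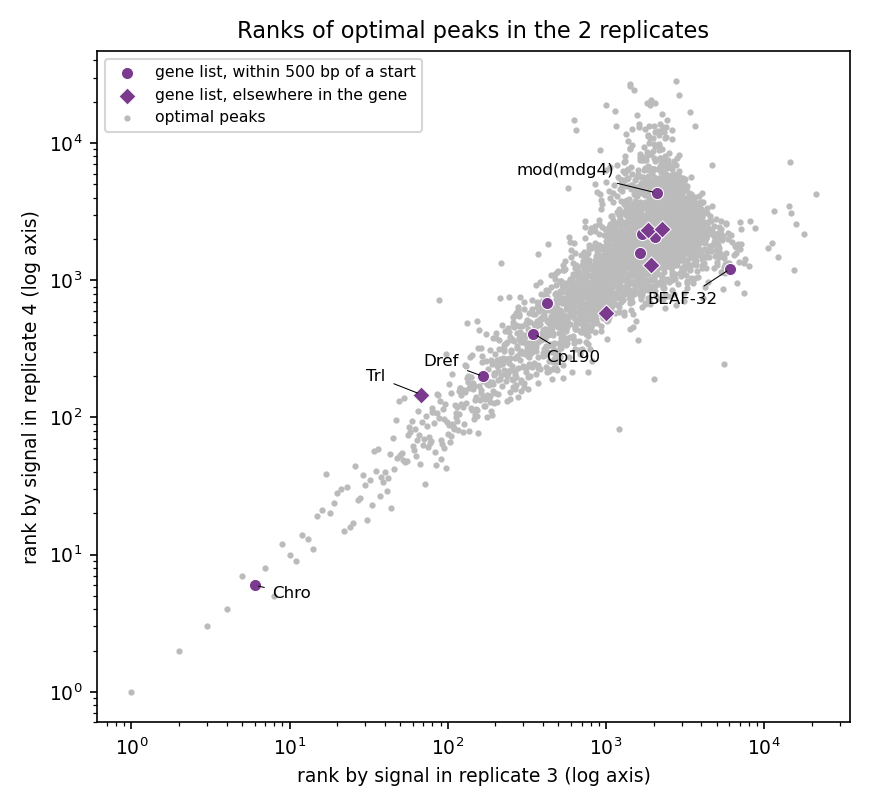
Rank in replicate 3 (horizontal log axis) against rank in replicate 4 (vertical log axis) of each optimal peak matched within 200 bp in both lists: the 14 peaks of the 10 genes in purple (circles within 500 bp of a start, diamonds elsewhere in the gene), all 3202 in grey. BEAF-32 lies at ranks 6109 and 1213, and Chro at 6 and 6.

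A wider list of 28 names of architectural protein genes, of which 26 matched a gene, had 8 bound (30.8%, against 15.1% of all protein-coding genes). The strongest start peak was that of pzg, which encodes Z4, an interband partner of Chro, at rank 673 (replicate 3 rank 636, replicate 4 rank 782). After it came shep, an RNA-binding modifier of the gypsy insulator, at rank 1304, pita, a zinc-finger insulator protein, at rank 1452, and Cap-H2, a condensin II subunit, at rank 1495. Optimal peaks stronger than the start peak of the same gene lay in introns of shep, at rank 570, and of fs(1)h, at rank 1286 against 1838 for its start peak. The gene fs(1)h is named here after its values were seen. The pzg start is shared with CG12974 and that of Cap-H2 with MED7. JIL-1, the histone H3 kinase of interbands, was the 1 gene of this list that held optimal summits without being bound at a start. It held 4 optimal summits inside the gene, the strongest (3L, 11084646 to 11084944) in an intron 7067 bp from the nearest JIL-1 TSS. That peak was at rank 74 with a signal of 544, and at ranks 65 in replicate 3 and 111 in replicate 4. The JIL-1 summit at rank 1374 lay in the 5' UTR, 560 bp from the nearest TSS, just past the limit of 500 bp. The JIL-1 peaks at ranks 467 and 898 overlap, so the 4 are not all separate regions. A pooled relaxed summit at a TSS was found for 20 of the 26, against 54.6% of all protein-coding genes, and the wider list was likewise chosen with earlier results known.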

How the data were processed

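ChIP-seq peaks of 2 samples (replicates 3 and 4 of 1 group) were used as deposited, in the narrowPeak format and dm6. Per the deposited readme files, each relaxed list was made as input for the IDR procedure from the replicate's alignments, or from both replicates pooled, with a control shared by both replicates. No source used here names the aligner, the peak caller or the IDR threshold. The authors' signal value (column 7) has no stated scale and was used only to rank peaks within a list. The deposited −log10 q-value (column 9) stands at its maximum of 3.89 in every optimal peak. The dm3 lists were not used.

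Summits were compared with the TSSs of Ensembl release 115 (23581 distinct, transposable elements left out), using Python 3.11.15 and pandas 2.3.3. The members and the wider list were chosen with earlier results of these data known, so counts are given beside those of all protein-coding genes, with no test. Named genes are the 10, those sharing a start with them, the 4 strongest bound genes of the wider list and any with optimal peaks only inside, and the start peaks ranked next to Chro. Alternatives covered TSS distances, overlap rules, nearest genes, the stronger 1603 peaks, each replicate alone, and motif windows. The assignment of peaks to genes was tested on simulated data.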

Additional observations from a re-analysis of the deposited data

How the results depend on the processing

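The 7 bound genes became 4 (Chro, Cp190, Dref and Trl) with only the stronger 1603 optimal peaks, where 7.95% of all protein-coding genes were bound. The other alternatives gave 5 to 9, each set here beside the share of all protein-coding genes: 5 when the peak itself had to cover a TSS (10.8%), 6 with each peak counted for its nearest gene (10.9%), 6 without replicate 3 (14.7%) and 6 without replicate 4 (14.9%). The count was 7 at 250 bp (12.4%), 1000 bp (17.5%) and 2000 bp (21.5%), and 9 with the pooled relaxed list (54.6%). Without replicate 3 mod(mdg4) was lost, and without replicate 4 BEAF-32 was lost. The rank of the strongest start peak, taken in each replicate alone, was 6 for Chro in both. It ran from 348 to 409 for Cp190, 168 to 199 for Dref, 423 to 681 for Trl and 1679 to 2188 for CTCF. For mod(mdg4) it ran from 2097 to 4327. The widest span was that of BEAF-32, 1213 to 4157, where the strongest start peak differed between the replicates. The count of genes with internal peaks was 4 to 6, the 6 when the peak interval only had to overlap the gene. That of genes matched in both replicates was 4 to 5, against 5: CTCF was lost when summits had to match within 100 bp. For internal peaks and matched genes, the share of all protein-coding genes was not worked out at these settings, so the counts cannot be set beside it. The wider list gave 7 to 9, against 8, at settings whose shares are given above. Apart from the 4 bound genes with only the stronger 1603 peaks, these counts stayed within 1.5 times the reported ones. The count of summits with a DRE, 1 within 100 bp, was 0 within 50 bp (2.15% of all optimal summits) and 3 within 200 bp (7.2%). Depth is unknown, so no interval can be put on a rank, and the ranks of the 2 replicates are not fully independent, since both lists were made with 1 shared control.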
